A study of Salvelinus alpinus with 144 samples.

Results

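The small RNA of whole Arctic charr (Salvelinus alpinus) embryos was compared between offspring of the small benthic morph (SB×SB) and offspring of the planktivorous limnetic morph (PL×PL) of Lake Thingvallavatn at 200 τs, a relative age in which τs is the time taken to form a somite pair. The comparison rests on 18 of the 72 small RNA libraries of the study, 9 SB×SB and 9 PL×PL, chosen by the cross-type and time point that the labels give. Each cross-type had 3 families of wild-caught parents, with 3 sibling embryos per family, all incubated side by side at the same temperature and sampled before hatching. Neither group carried a treatment or a transgene. The other libraries were 150 τs embryos of both pure crosses and hybrids of both directions and time points, SB×PL and PL×SB (the mother's morph is given first), and they are used only beside the results at 200 τs. The siblings of a family were split over 3 sequencing batches, with 1 sibling of each family in each batch, so batch and cross-type were balanced.

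MicroRNAs (miRNAs) are short RNAs that pair with messenger RNAs, mostly through their seed near the 5′ end, and lower their stability or translation. A hairpin precursor is cut into a 5p and a 3p strand, of which the more abundant usually acts. Many miRNAs are confined to a tissue in fish embryos, such as miR-1, miR-133 and miR-206 in muscle, miR-9, miR-124 and miR-128 in the nervous system and the miR-200 and miR-203 families in epithelia, so that the profile of a whole embryo mixes the tissues present at that age.

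The deposited values are raw read counts for each mature miRNA on each precursor of miRBase, from all species, and a read counts on every entry that it matches. Entries named for zebrafish (dre-) or Atlantic salmon (ssa-) were used, rows with identical counts were taken once, and those with at least 10 reads over the 18 libraries were tested. This left 738 of the 53327 entries, from 124 miRNA families by name. Entries of a family often hold the same reads, so numbers of entries are not numbers of miRNA genes, and a miRNA with the prefix dre- or ssa- is a charr sequence that matched that entry. The counts carry no position in a charr genome. Levels are given as CPM, counts relative to the total of a library after its scaling by TMM (trimmed mean of M-values), and a call is an adjusted p (Benjamini-Hochberg over the 738 entries) under 0.1 in edgeR's two-sided quasi-likelihood F-test with batch as a term, the threshold of the study.

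The totals over all entries were 27834461 to 52112808 in SB×SB and 22770351 to 57989761 in PL×PL (medians 46907433 and 38717656). Over the tested entries they were 1635348 to 3127867 in SB×SB and 1390953 to 3491550 in PL×PL. The miR-10 family took 31.2% to 42.7% of the tested counts in SB×SB and 34.0% to 47.4% in PL×PL, and the TMM factors were 0.835 to 1.52 in SB×SB and 0.566 to 1.32 in PL×PL. PL×PL replicate 7, from batch 1, stood apart, with the lowest total, the lowest TMM factor and the largest miR-10 share. The share of miR-10 and the scaling moved with batch as well as with cross-type. In each cross-type, the libraries of batch 3 had the lowest miR-10 shares and the highest TMM factors. The part of this share and of the scaling in the results below was not tested beyond the scalings given in the closing section.

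Of the 738 entries, 88 differed between the cross-types (11.9%). The level of 45 entries was higher in SB×SB (6.1% of those tested) and that of 43 was lower (5.83%), and they belonged to 31 of the 124 families. Called entries of the muscle miRNAs miR-1 and miR-206, and of miR-10, miR-203 and miR-2188, were lower in SB×SB. Called entries of miR-429, miR-221, miR-222, miR-128, miR-138 and miR-92 were higher. Not every entry of these families was called (2 of 8 for miR-203 and 1 of 3 for miR-221). The let-7, miR-20 and miR-181 families held entries in both directions. Most differences were modest, with a median size of 0.37 on the log2 scale among those called. In whole embryos, fewer cells of a type and less of the miRNA per cell cannot be told apart. Calls at an adjusted p under 0.05 numbered 30 (4.07%), and 172 entries had an unadjusted p under 0.05 (23.3%). The 3 family means of SB×SB lay beyond the 3 of PL×PL in 82 of the 88 entries, against 192 of all 738 (26%), and in 0 of the 738 did the 9 SB×SB embryos separate fully from the 9 PL×PL embryos. The sign was the same in all 3 batches for 84 of the 88 called entries and for 337 of the 738. These counts of families and batches use the libraries that gave the calls, so they are not separate support.

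**Figure D1:**
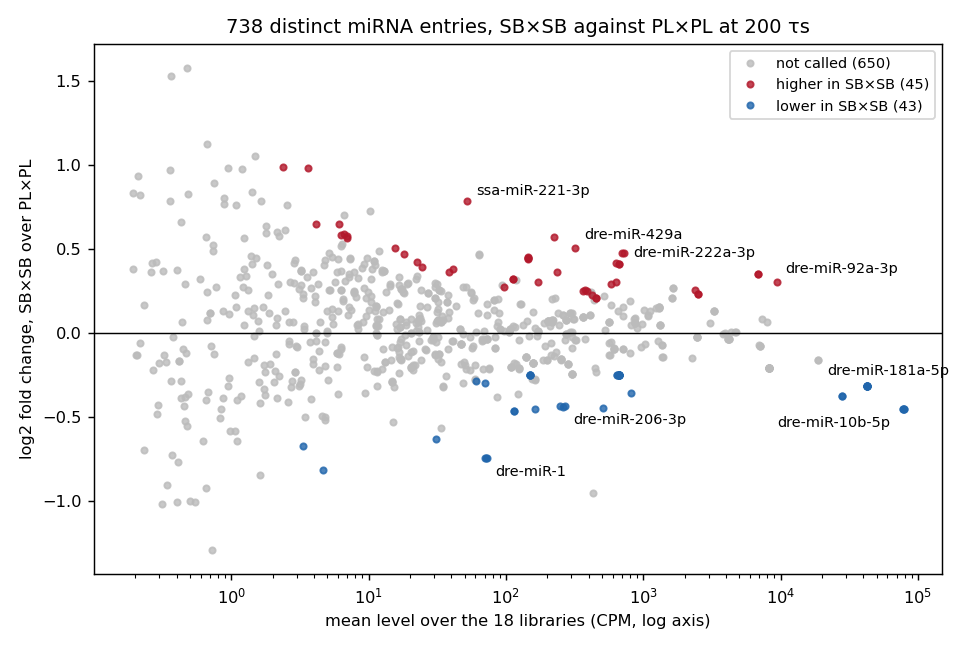
Mean level over the 18 libraries (x axis, CPM, log scale) against the log2 fold change of SB×SB over PL×PL at 200 τs (y axis), with a point for each of the 738 entries and the called entries in red (45 higher in SB×SB) and blue (43 lower). The called entries all lie within 1 log2 unit of 0, and the most abundant of them, miR-10b-5p and miR-181a-5p, were lower in SB×SB.

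Because siblings share parents, 2 further fits treated the family as the unit or as a random block. With the counts of siblings summed, 3 families against 3, edgeR called 28 entries, 7 higher and 21 lower in SB×SB, all of them among the 88. With the family as a random block in limma-voom, 69 entries were called, 42 higher and 27 lower, also all among the 88, and the estimated correlation within families was 0.012. Without the batch term, 4 entries were called, 1 higher and 3 lower. In pairs of an SB×SB and a PL×PL library, deviations from cross-type means correlated at 0.30 within and −0.15 between batches on average. Without PL×PL replicate 7, 53 entries were called, 32 higher and 21 lower, of which 48 were among the 88.

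Among the muscle families, entries of miR-1 and miR-206 were lower in SB×SB. The miRNA miR-1, which promotes the differentiation of skeletal and cardiac muscle, ranged from 39.7 to 74.7 CPM in the SB×SB embryos (median 49.1) and from 68.0 to 113.8 CPM in the PL×PL embryos (median 95.3) for the entry dre-miR-1. Only the highest SB×SB embryo exceeded any PL×PL embryo, and this overlap arose in batch 2, where SB×SB embryos had 46.6 to 74.7 CPM and PL×PL embryos 68.0 to 84.3 CPM. In batch 1 the embryos had 41.9 to 63.0 CPM in SB×SB and 80.1 to 97.9 CPM in PL×PL, and in batch 3 they had 39.7 to 65.8 CPM in SB×SB and 101.8 to 113.8 CPM in PL×PL. The log2 fold change of dre-miR-1 was −0.74 ± 0.13 (SE), or 0.598 of the PL×PL level, with an adjusted p of 0.0012 in edgeR, and 0.064 with sums per family. Each library held between 77 and 399 reads of this entry. As means of log2 CPM (prior count 2) turned back to CPM, all 3 SB×SB families (51.1, 68.4 and 43.4) were below all 3 PL×PL families (84.1, 95.8 and 91.9). The rule that picked this entry required families that do not overlap, so this order is not separate support. The salmon entry ssa-miR-1-3p, which shares these reads, gave the same picture (log2 fold change −0.75 ± 0.13, adjusted p = 0.0012), and without any of the 18 embryos or of the 6 families both remained called.

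The other muscle miRNAs moved less. miR-206 is a relative of miR-1 found in skeletal muscle. The entry dre-miR-206-3p ranged from 125.6 to 308.0 CPM in SB×SB (median 218.6) and from 155.6 to 543.9 CPM in PL×PL (median 280.3), with a log2 fold change of −0.44 ± 0.12 (edgeR, adjusted p = 0.043), and 0.12 with sums per family. The groups overlapped broadly, and the mean log2 difference was −0.77 in batch 1, −0.01 in batch 2 and −0.54 in batch 3. Its call ended without SB×SB replicate 7 (−0.40, adjusted p = 0.102), SB×SB family 1 (−0.47, 0.102), SB×SB family 3 (−0.33, 0.23) or PL×PL family 1 (−0.41, 0.13). miR-133a, which is transcribed with miR-1 from shared precursors in vertebrates, did not pass the test (dre-miR-133a-3p, 1316 ± 298 CPM in SB×SB and 1465 ± 284 CPM in PL×PL, SD, n = 9 each, log2 fold change −0.14 ± 0.11), nor did miR-133b, the cluster partner of miR-206 (dre-miR-133b-3p, −0.36 ± 0.16, adjusted p = 0.17), or miR-499, encoded within a myosin gene (dre-miR-499-5p, −0.21 ± 0.11, adjusted p = 0.24). Of the 26 entries of these 4 families, 6 were lower and 0 higher in SB×SB (23.1% called, against 11.9% of all entries). Their median log2 fold change was −0.21 against 0.03 over all entries tested. When library totals alone scaled the counts, that median was 0.02, where the median of all entries was 0.26, and dre-miR-206-3p lost its call (−0.18, adjusted p = 0.29).

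Of the 32 entries of epithelial families, 3 were higher and 2 lower in SB×SB, a share (15.6%) near that of all entries tested (11.9%). miR-429 belongs to the miR-200 group, which keeps cells epithelial by repressing the Zeb transcription factors. In SB×SB, dre-miR-429a ranged from 269.8 to 512.4 CPM (median 386.3), against 167.8 to 340.3 CPM in PL×PL (median 268.4). The embryos of the cross-types did not overlap within any of the 3 batches, which held for 4 of the 738 entries, all of them called higher. The log2 fold change was 0.51 ± 0.09, or 1.42-fold, with an adjusted p of 0.0017 in edgeR, and 0.093 with sums per family. The salmon entry ssa-miR-429-3p ranged from 196.1 to 345.1 CPM in SB×SB (median 264.8) and from 116.9 to 248.8 CPM in PL×PL (median 166.2), a log2 fold change of 0.57 ± 0.10 (adjusted p = 0.0012 in edgeR, 0.069 with sums per family). Both of these miR-429 entries remained called without any of the 18 embryos or of the 6 families. Of the 3 miR-429 entries tested, the remaining one was not called (log2 fold change 0.34).

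The near relatives of miR-429 gave other values. dre-miR-200a-3p (688 ± 168 CPM in SB×SB and 742 ± 221 CPM in PL×PL, SD, n = 9 each) had a log2 fold change of −0.09 ± 0.10, dre-miR-200b-3p one of −0.04 ± 0.09 and dre-miR-141-3p one of −0.28 ± 0.13, and none of them passed the test (adjusted p 0.19 to 0.81). miR-203 is an epidermal miRNA that restrains stem cell division in mammalian skin. The level of dre-miR-203a-3p ranged from 521.5 to 910.4 CPM in SB×SB (median 684.1) and from 749.0 to 1177 CPM in PL×PL (median 843.0), a log2 fold change of −0.36 ± 0.11 (edgeR, adjusted p = 0.056, and 0.069 with sums per family). SB×SB embryos were lower on average in every batch (−0.61, −0.34 and −0.15 in batches 1, 2 and 3), and the ranges overlapped. The call of dre-miR-203a-3p ended without SB×SB replicate 1, 4 or 7, SB×SB family 1 or PL×PL family 2 (adjusted p 0.102 to 0.17), and also when library totals alone scaled the counts (−0.10, adjusted p = 0.53). The entry ssa-miR-203b-3p was about as abundant (mean 806 CPM, against 810 CPM for dre-miR-203a-3p). Its log2 fold change was −0.12 ± 0.11, and it was not called (edgeR, adjusted p = 0.56). Apart from miR-429, the third higher entry was the scarce ssa-miR-200a-3-5p (3.23 ± 1.84 CPM in SB×SB and 1.51 ± 1.22 CPM in PL×PL, SD, n = 9 each, adjusted p = 0.095).

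**Figure D2:**
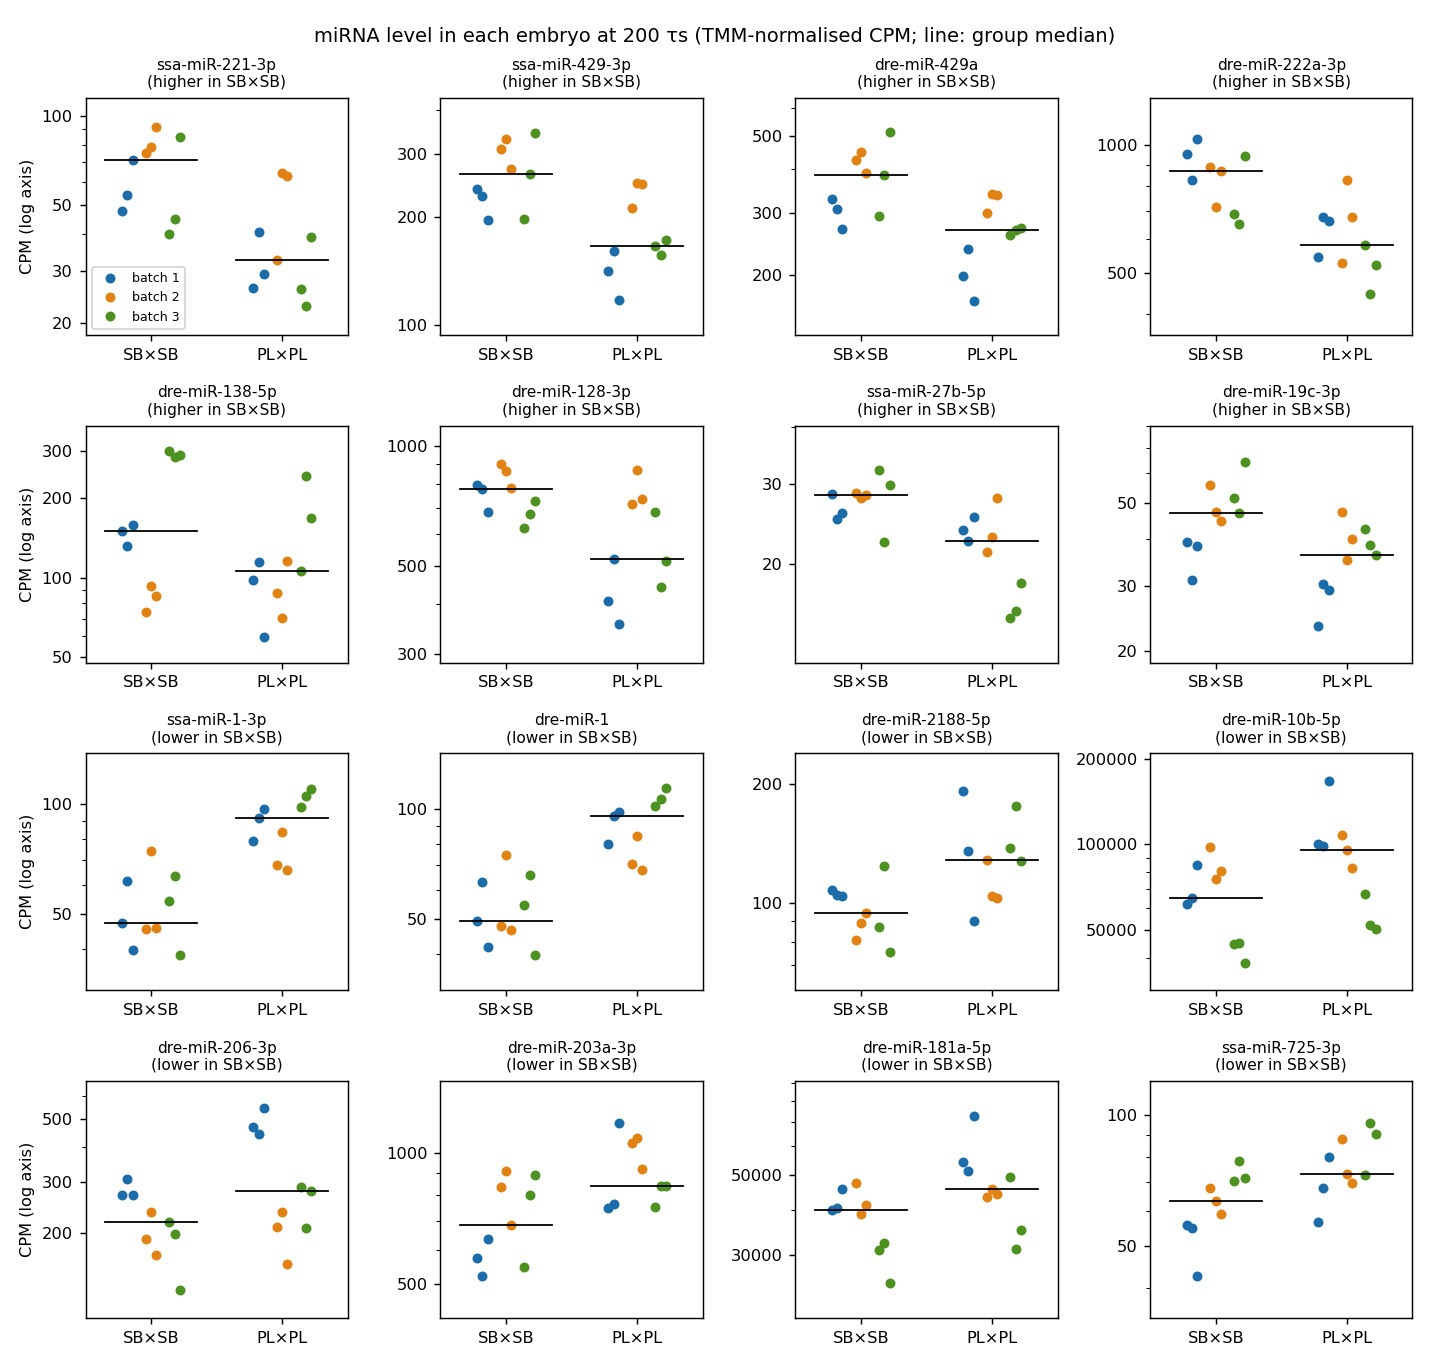
Level of 16 called miRNAs in each embryo at 200 τs (y axes, TMM-scaled CPM, log scale), 8 higher and 8 lower in SB×SB as picked by the rule for named entries, with SB×SB left of PL×PL in each panel, colours for the 3 sequencing batches and lines for the group medians. The SB×SB median of dre-miR-1 (49.1 CPM) lies below every PL×PL embryo. Those of dre-miR-429a, ssa-miR-429-3p, dre-miR-222a-3p, ssa-miR-221-3p and ssa-miR-27b-5p lie above every PL×PL embryo. The embryos of the cross-types overlap in every panel.

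The endothelial miRNAs miR-221 and miR-222 derive from a shared cluster in vertebrates and act in vessel growth and cell division. The entry dre-miR-222a-3p ranged from 652.5 to 1034 CPM in SB×SB (median 871.1) and from 445.0 to 826.7 CPM in PL×PL (median 581.2). It was 1.39-fold higher in SB×SB (log2 fold change 0.48 ± 0.10, adjusted p = 0.006 in edgeR, 0.069 with sums per family), and the embryos overlapped in 1 of the 3 batches. ssa-miR-221-3p ranged from 40.0 to 92.0 CPM in SB×SB (median 70.9) and from 22.8 to 64.1 CPM in PL×PL (median 32.8). This was the largest increase among the entries named by the rule (log2 fold change 0.79 ± 0.16, 1.73-fold, adjusted p = 0.006 in edgeR), with an adjusted p of 0.13 with sums per family, and the embryos did not overlap within any batch. Both remained called without any of the 18 embryos or of the 6 families. The more abundant zebrafish entry of the same arm did not pass the test. dre-miR-221-3p had 146 ± 28 CPM in SB×SB and 140 ± 22 CPM in PL×PL (SD, n = 9 each), a log2 fold change of 0.07 ± 0.10 (adjusted p = 0.72). Of the 5p arm of miR-222a, the abundant dre-miR-222a-5p (mean 1646 CPM) was not called (0.27 ± 0.12, edgeR, adjusted p = 0.18). The entry ssa-miR-222a-5p (mean 112 CPM) was called higher (0.32 ± 0.10, adjusted p = 0.06).

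Of the 22 entries of miR-126, miR-144, miR-451, miR-221 and miR-222, 6 were higher and 0 lower. This share (27.3% called, against 11.9% of all entries) came from miR-221 and miR-222 alone. The red blood cell miRNA dre-miR-451 had 289 ± 181 CPM in SB×SB and 573 ± 429 CPM in PL×PL (SD, n = 9 each), a log2 fold change of −0.95 ± 0.36 that did not pass the test (adjusted p = 0.11), and its cluster partner ssa-miR-144-5p had one of −0.57 ± 0.26 (adjusted p = 0.19). The endothelial dre-miR-126a-5p had a log2 fold change of −0.09 ± 0.09 (adjusted p = 0.58).

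The neural families were kept in a pair of lists. In the list of neurons and neural progenitors, 15 of 88 entries were higher and 0 lower (17% called, against 11.9% of all entries), and the median log2 fold change of the 88 was 0.15 against 0.03 over all entries tested. The 15 came from 4 of its 11 families, miR-9, miR-128, miR-132 and miR-138. In the broader list of miRNAs of the brain and spinal cord (miR-34, miR-99, miR-100, miR-125 and miR-181), 2 of 52 entries were higher and 7 lower (17.3% called), and all 7 lower entries were miR-181a-5p. miR-128 is enriched in neurons, and dre-miR-128-3p ranged from 621.4 to 899.5 CPM in SB×SB (median 779.5) and from 357.1 to 868.6 CPM in PL×PL (median 520.9), a log2 fold change of 0.41 ± 0.10 (adjusted p = 0.033 in edgeR, 0.1 with sums per family). PL×PL embryos of batches 2 and 3 reached the SB×SB range, and the call ended without SB×SB family 2 (0.36, adjusted p = 0.102). miR-138, which is enriched in the brain and acts at synapses in mammals, differed most between batches, with dre-miR-138-5p at 74.1 to 298.9 CPM in SB×SB (median 149.9) and at 59.7 to 240.3 CPM in PL×PL (median 106.2). Its log2 fold change was 0.44 ± 0.15 (edgeR, adjusted p = 0.094, and 0.2 with sums per family), with mean differences of 0.73, −0.09 and 0.84 in batches 1, 2 and 3. Leaving out 11 of the 18 embryos singly, or any but PL×PL family 3 of the 6 families, ended this call (adjusted p 0.102 to 0.23). The activity-dependent neuronal miR-132 was scarce, with ssa-miR-132-3p at 7.37 ± 2.72 CPM in SB×SB and 4.76 ± 2.38 CPM in PL×PL (SD, n = 9 each, log2 fold change 0.65 ± 0.21, adjusted p = 0.077).

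The most abundant entries of the miR-9 arms, a miRNA of neural progenitors, had opposite signs, and the difference between arms was not tested. Opposite signs were found in 88 of all 166 precursors with both arms at a mean of at least 1 CPM. The 3p arm was called higher in SB×SB in 5 of 13 entries (log2 fold changes 0.23 to 0.26), for example ssa-miR-9a-3-3p at 408 ± 38 CPM in SB×SB and 342 ± 35 CPM in PL×PL (SD, n = 9 each, adjusted p = 0.043). The more abundant 5p arm was at 7663 ± 868 CPM in SB×SB and 8899 ± 1918 CPM in PL×PL for dre-miR-9-5p (SD, n = 9 each), a log2 fold change of −0.21 ± 0.10 that did not pass the test (adjusted p = 0.2). Other neural miRNAs that did not pass were dre-miR-124-3p, the most neuron-specific of them (−0.32 ± 0.13, adjusted p = 0.15), dre-miR-218a of motor neurons (−0.16 ± 0.08, adjusted p = 0.22) and dre-miR-153a-3p (0.21 ± 0.10, adjusted p = 0.22).

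The most abundant miRNAs were lower in SB×SB. The 10 entries with the most reads were 4 of miR-10b-5p and 6 of miR-181a-5p. miR-10b is encoded in the Hox clusters, which pattern the body axis. The level of dre-miR-10b-5p ranged from 38414 to 97757 CPM in SB×SB (median 64789.5) and from 50397 to 167522 CPM in PL×PL (median 95528), a log2 fold change of −0.45 ± 0.13 (adjusted p = 0.043 in edgeR, 0.069 with sums per family). The 3 lowest values of each cross-type were those of batch 3, and the mean log2 difference was −0.76, −0.17 and −0.39 in batches 1, 2 and 3. Without PL×PL replicate 7, the highest library, the log2 fold change of dre-miR-10b-5p was −0.35 (adjusted p = 0.037), and the call ended without SB×SB family 3 (−0.48, adjusted p = 0.16) or PL×PL family 1 (−0.42, adjusted p = 0.13). When library totals alone scaled the counts, the log2 fold change of dre-miR-10b-5p was −0.19 (adjusted p = 0.0061). As a share of the tested counts, with no TMM scaling, the most abundant miR-10 entry took 5.85% to 8.17% in SB×SB (median 6.88%) and 6.56% to 9.48% in PL×PL (median 8.25%). The Hox list held 25 entries, of which 7 were lower and 0 higher (28% called, against 11.9% of all entries), all 7 from miR-10. Its other family, miR-196, did not pass the test (dre-miR-196a-5p, −0.14 ± 0.10, adjusted p = 0.39).

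miR-181a is found in the brain and sense organs of zebrafish larvae. Its 5p arm had 25089 to 47486 CPM in SB×SB (median 40110.5) and 31124 to 73047 CPM in PL×PL (median 45592) for dre-miR-181a-5p, a log2 fold change of −0.32 ± 0.11 (adjusted p = 0.083 in edgeR, 0.104 with sums per family). The call was lost under upper-quartile scaling (−0.32, adjusted p = 0.15) and when library totals alone scaled the counts (−0.06, adjusted p = 0.38). The ranges overlapped in 2 of the 3 batches, and without PL×PL replicate 7 the log2 fold change of dre-miR-181a-5p was −0.26 (adjusted p = 0.105). It also lost its call without PL×PL replicate 3, SB×SB replicate 1, 3, 4, 7 or 9, any SB×SB family or PL×PL family 1 (adjusted p 0.102 to 0.23). The 3p entry ssa-miR-181a-3-3p, which had 266 ± 45 CPM in SB×SB and 207 ± 34 CPM in PL×PL (SD, n = 9 each), went the other way (log2 fold change 0.36 ± 0.10, adjusted p = 0.04). It was the only 1 called of 13 miR-181 3p entries. More abundant 3p entries were not called, such as dre-miR-181a-2-3p (mean 1622 CPM, 0.21 ± 0.09, edgeR, adjusted p = 0.19) and dre-miR-181a-3p (mean 1016 CPM, 0.14 ± 0.11, adjusted p = 0.47). Over the 166 precursors with both arms at a mean of at least 1 CPM, 43 had at least 1 arm called, and the arms had opposite signs in 24 of these 43 and in 88 of all 166.

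**Figure D3:**
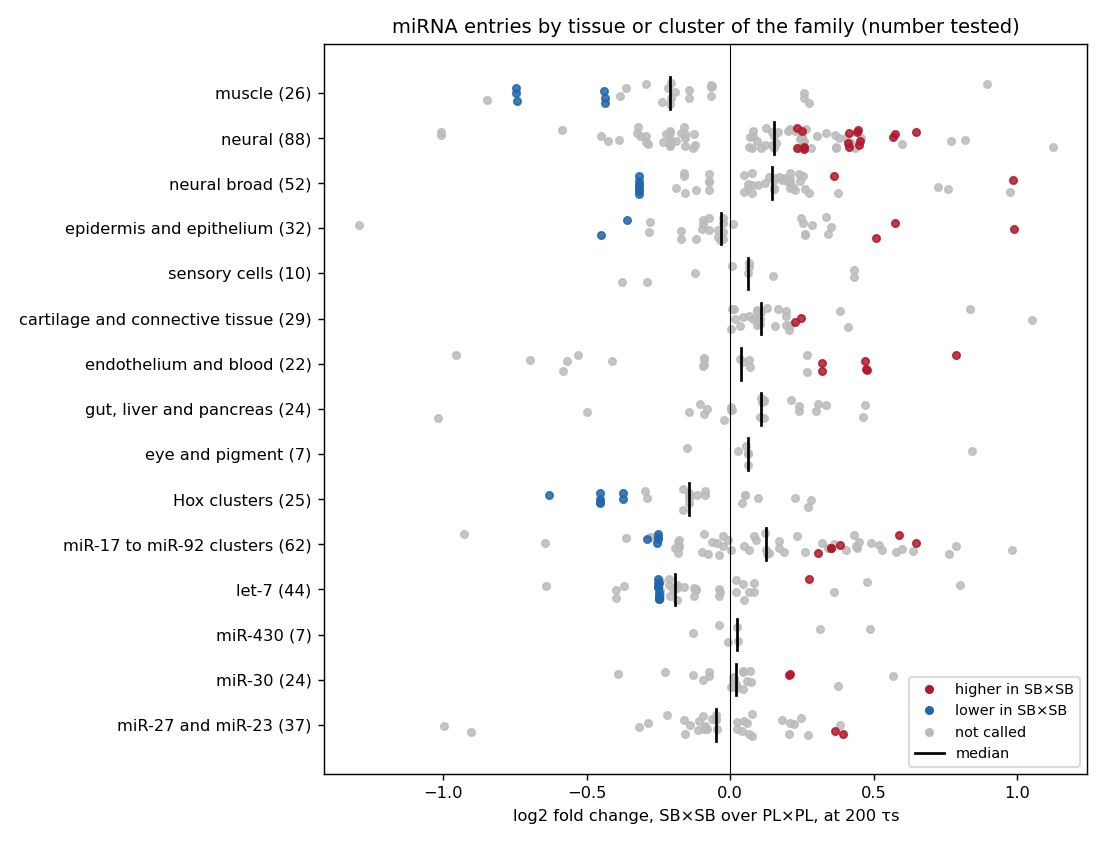
Log2 fold change of SB×SB over PL×PL at 200 τs (x axis) for the entries of 15 tissue, cluster or family lists (rows, with the number of entries tested), a point for each entry, coloured by its call, and a black line at each list's median. The muscle, Hox and let-7 lists have medians of −0.21, −0.14 and −0.19, and the neural list has one of 0.15.

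Among clusters tied to growth, let-7, which accumulates as animals develop and restrains stem cell programmes, had 10 entries lower and 1 higher of 44. This was 25% called, against 11.9% of all entries. The lower entries were all let-7a, with dre-let-7a at 605 ± 88 CPM in SB×SB and 728 ± 181 CPM in PL×PL (SD, n = 9 each), a log2 fold change of −0.25 ± 0.09 (adjusted p = 0.095) that became 0.011 when library totals alone scaled the counts and lost its call under upper-quartile scaling (−0.25, adjusted p = 0.15). This call of dre-let-7a ended in 17 of the 24 fits that left out an embryo or a family, among them the fit without PL×PL replicate 7 (−0.18, adjusted p = 0.17), and the higher entry was dre-let-7j (0.27 ± 0.10, adjusted p = 0.095). The miR-17 to miR-92 clusters, which are active in dividing cells, had 6 entries higher and 5 lower of 62 (17.7% called, against 11.9% of all entries). No entry of these clusters was called lower under upper-quartile scaling (3 higher and 0 lower, 18 at an unadjusted p under 0.05 in edgeR) or with library totals alone (26 higher and 0 lower, 30 at an unadjusted p under 0.05). dre-miR-92a-3p, with 10289 ± 2671 CPM in SB×SB and 8402 ± 2432 CPM in PL×PL (SD, n = 9 each), was higher (0.30 ± 0.10, adjusted p = 0.069), and so was the less abundant dre-miR-19c-3p at 31.0 to 64.3 CPM in SB×SB (median 47.0) and 23.3 to 47.3 CPM in PL×PL (median 36.2), a log2 fold change of 0.38 ± 0.11 (adjusted p = 0.043, and 0.33 with sums per family). The call of dre-miR-19c-3p ended without SB×SB replicate 1 or 9, SB×SB family 1 or 3, or PL×PL family 2 (adjusted p 0.101 to 0.21), and that of dre-miR-92a-3p in 9 of the 24 fits (adjusted p up to 0.3) and under upper-quartile scaling (0.31, adjusted p = 0.12). The lower entries were miR-20a-5p (ssa-miR-20a-5p, 137 ± 27 CPM in SB×SB and 163 ± 30 CPM in PL×PL, SD, n = 9 each, log2 fold change −0.25 ± 0.09) and dre-miR-93 (−0.29 ± 0.11), both with an adjusted p of 0.095 and each uncalled in at least 18 of the 24 fits. Members of the same clusters with no call were dre-miR-17a-5p (−0.18 ± 0.09), dre-miR-19b-3p (−0.04 ± 0.09) and dre-miR-25-3p (0.09 ± 0.09).

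Of the 29 entries of cartilage and connective tissue families, 2 were higher and 0 lower (6.9% called, against 11.9% of all entries), and 8 had an unadjusted p under 0.05, against 172 of all 738. All 29 log2 fold changes were above 0, with a median of 0.11 against 0.03 over all entries tested, and 23 were called higher when library totals alone scaled the counts, where the median of all entries was 0.26. The 2 higher entries were both of miR-455, which acts in cartilage, and dre-miR-455-5p had 457 ± 39 CPM in SB×SB and 393 ± 44 CPM in PL×PL (SD, n = 9 each), a log2 fold change of 0.23 ± 0.08 (adjusted p = 0.083) that lost its call in 17 of the 24 fits. The cartilage miRNA dre-miR-140-3p had 522 ± 51 CPM in SB×SB and 525 ± 128 CPM in PL×PL, with a log2 fold change of 0.02 ± 0.09. The skeletal mesenchyme miRNAs dre-miR-199-3p (0.10 ± 0.06) and ssa-miR-214-5p (0.04 ± 0.10) did not pass the test either, nor did the smooth muscle miRNAs dre-miR-143 (0.07 ± 0.09) and dre-miR-145-5p (0.00 ± 0.17).

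The lists of the sense organs, the digestive organs, the eye and miR-430 held 10, 24, 7 and 7 entries. Of these, 0 were called in edgeR, against 11.9% of all entries tested. An unadjusted p under 0.05 was reached by 2, 0, 0 and 1 of them, against 23.3% of all entries. The hair cell and photoreceptor miRNA dre-miR-182-5p had a log2 fold change of 0.01 ± 0.09, the intestinal dre-miR-192 one of 0.00 ± 0.07, the pancreatic islet dre-miR-375 one of 0.12 ± 0.09 and the lens and pigment cell dre-miR-204-5p one of 0.06 ± 0.08. In the list of the sense organs, dre-miR-96-5p had a larger log2 fold change of 0.43 (edgeR, adjusted p = 0.11). It was called higher in 4 of 45 alternative settings. For the liver miRNA dre-miR-122 the error was too large to place the difference (0.46 ± 0.60, with 71 ± 32 CPM in SB×SB and 56 ± 66 CPM in PL×PL, SD, n = 9 each). miR-430, which clears maternal messenger RNA in early fish embryos, had a log2 fold change of −0.13 ± 0.15 for dre-miR-430c-3p.

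Outside these lists 6 entries were higher and 6 lower of 249 (4.82% called, against 11.9% of all entries). The 3 largest decreases among them by size were those of ssa-miR-737-5p (−0.82 ± 0.24, 3.20 ± 1.80 CPM in SB×SB and 6.10 ± 2.19 CPM in PL×PL, SD, n = 9 each), ssa-miR-7552a-3p (−0.67 ± 0.24) and dre-miR-2188-5p. The last was abundant enough to give full values, with 75.3 to 124.2 CPM in SB×SB (median 94.3) and 90.2 to 191.9 CPM in PL×PL (median 128.5), a log2 fold change of −0.46 ± 0.12 (adjusted p = 0.037 in edgeR, 0.069 with sums per family). The call of dre-miR-2188-5p ended without SB×SB family 1, SB×SB family 3 or PL×PL family 1 (adjusted p 0.11 to 0.15), and with library totals alone (−0.24, adjusted p = 0.29). The more abundant arm ssa-miR-2188-3p (mean 378 CPM, against 115 CPM for ssa-miR-2188-5p) was not called (−0.035 ± 0.10, edgeR, adjusted p = 0.87). ssa-miR-725-3p ranged from 42.6 to 78.5 CPM in SB×SB (median 63.5) and from 56.8 to 96.1 CPM in PL×PL (median 73.4), a log2 fold change of −0.30 ± 0.10 (adjusted p = 0.077 in edgeR, 0.086 with sums per family), and was uncalled in 14 of the 24 fits, the one without PL×PL replicate 7 included (adjusted p = 0.105), under upper-quartile scaling (−0.30, adjusted p = 0.11) and with library totals alone (−0.06, adjusted p = 0.78). In the miR-27 and miR-23 list 2 of 37 entries were higher (5.41% called), both of the minor arm miR-27b-5p. ssa-miR-27b-5p ranged from 22.4 to 32.2 CPM in SB×SB (median 28.4) and from 15.2 to 28.0 CPM in PL×PL (median 22.5), a log2 fold change of 0.39 ± 0.12 (adjusted p = 0.063 in edgeR, 0.24 with sums per family) that was uncalled in 9 of the 24 fits, whereas the major arm dre-miR-27b-3p had one of −0.05 ± 0.06 and was not called.

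At 150 τs, in other embryos of the same families, SB×SB and PL×PL differed in 12 of the 738 entries (1.63%). These included 7 of the 88 called at 200 τs, all of them miR-181a-5p, which was lower in SB×SB at both ages (dre-miR-181a-5p, log2 fold change −0.29 ± 0.08 at 150 τs, adjusted p = 0.02 in edgeR). The 12 came from a fit of 71 libraries in 8 groups, which called 60 entries at 200 τs (8.13%). The 88 came from the 18 libraries alone. Among the 88 entries, 46 had the same sign at 150 τs (52.3%), as had 408 of all 738 (55.3%). The median size of the 88 at 150 τs was 0.098 on the log2 scale, against 0.13 over all 738. For dre-miR-1 the log2 fold change at 150 τs was −0.02 ± 0.17, and for dre-miR-429a it was 0.08 ± 0.08. The difference between the ages passed edgeR's test in 14 entries (1.9%), of which 12 were among the 88. These were entries of miR-1, miR-429, miR-222a-3p, miR-92a-3p, miR-181a-3-3p and miR-301c-5p. The 88 were called from 200 τs libraries that also enter this difference, so the overlap is not separate support.

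**Figure D4:**
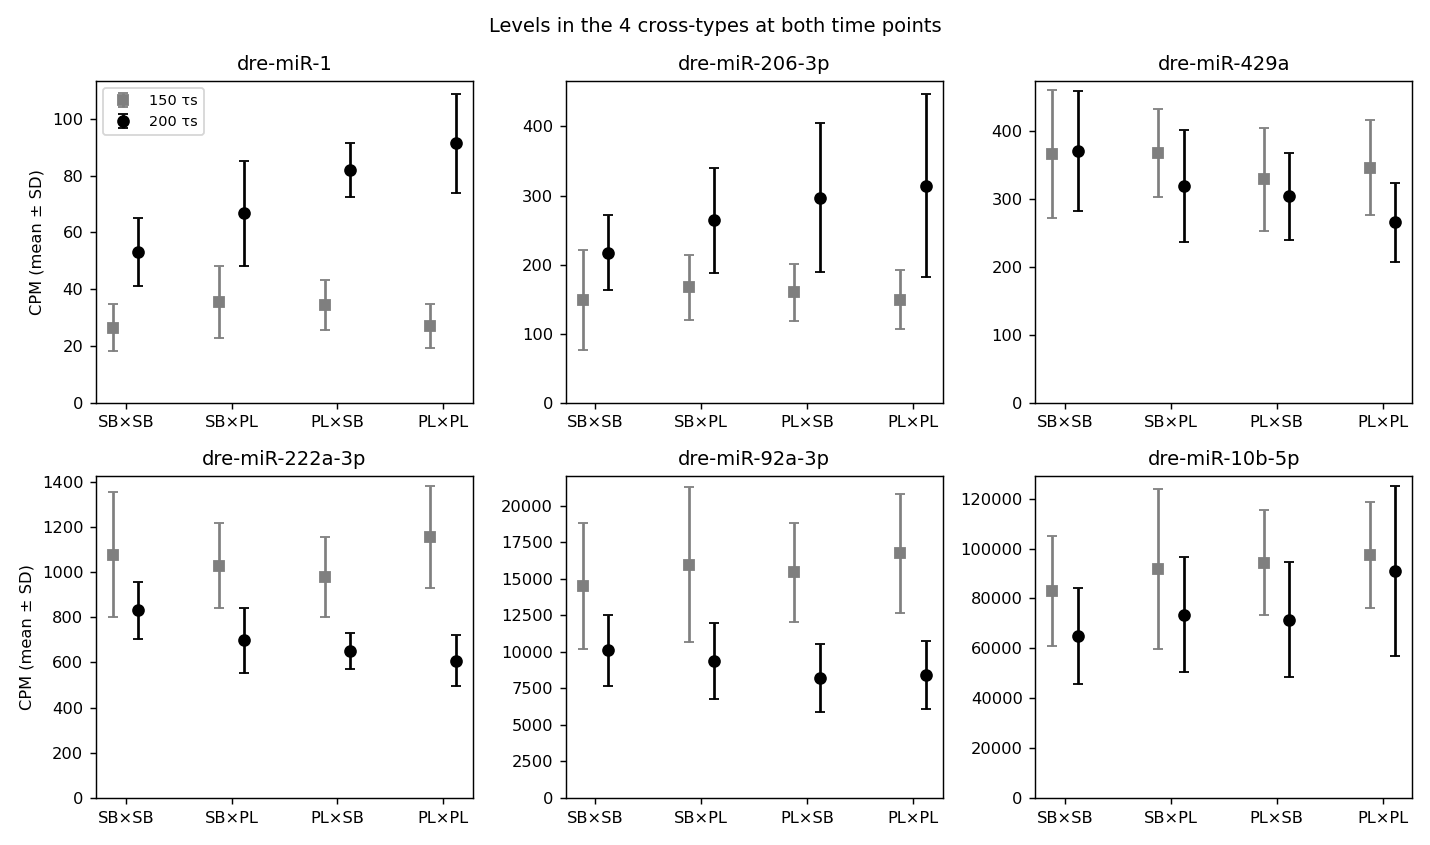
Levels of 6 miRNAs (y axes, CPM scaled over 71 libraries, mean ± SD) in SB×SB, SB×PL, PL×SB and PL×PL embryos at 150 τs (grey squares) and 200 τs (black circles), with 9 embryos per group, or 8 for PL×SB at 200 τs. For dre-miR-1 the cross-types are close at 150 τs (26.4 CPM in SB×SB and 27.0 CPM in PL×PL) and apart at 200 τs (53.0 CPM in SB×SB and 91.4 CPM in PL×PL), with the hybrids between.

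The hybrids are embryos that the comparison of the pure crosses does not use. The pure crosses at the ends of each order below are the libraries that gave the calls. Only the places of the hybrids are therefore separate from the calls. At 200 τs, dre-miR-1 was at 53.0 ± 12 CPM in SB×SB, 66.7 ± 18.5 CPM in SB×PL, 82.0 ± 9.6 CPM in PL×SB and 91.4 ± 17.4 CPM in PL×PL (SD, n = 9, 9, 8 and 9). Neighbouring groups overlapped within their SD, and the reciprocal hybrids, which differ in the morph of the mother, had a log2 difference of −0.28 ± 0.14 (SB×PL over PL×SB) that did not pass the test. For dre-miR-222a-3p the order was the reverse, with 829.4 ± 126 CPM in SB×SB, 698 ± 143 CPM in SB×PL, 649 ± 79 CPM in PL×SB and 608 ± 113 CPM in PL×PL, and for dre-miR-429a it was also SB×SB first (370 ± 88, 319 ± 82, 304 ± 64 and 265 ± 58 CPM in the same order of groups). Over all entries, edgeR called 0 of 738 between the reciprocal hybrids, with 25 at an unadjusted p under 0.05, 1 of them among the 88. The sign of SB×PL over PL×SB was that of SB×SB over PL×PL in 43 of the 45 higher entries (95.6%) and 24 of the 43 lower entries (55.8%). This was 76.1% of the 88, against 54.9% of all 738. The share of all entries with SB×PL above PL×SB was not taken. The separate shares of the higher and of the lower entries therefore have no matching base here. Entries that share reads are not separate in these counts.

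The direction of change with age was read in the hybrids alone. From 150 to 200 τs, 238 of the 738 entries rose (32.2%) and 256 fell (34.7%) in edgeR's test. Of the 45 entries higher in SB×SB at 200 τs, 6 rose and 27 fell with age in the hybrids, and of the 43 lower entries, 27 rose and 12 fell. By name, the 45 came from 24 combinations of family and arm and the 43 from 15. Entries that share reads are not separate in these counts either. Muscle and let-7 entries lower in SB×SB were among those that rose with age (dre-miR-1, log2 fold change 1.07 ± 0.11, and dre-miR-206-3p, 0.73 ± 0.09), and miR-221, miR-222 and miR-19c were among those higher in SB×SB that fell (ssa-miR-221-3p, −0.85 ± 0.10, dre-miR-222a-3p, −0.57 ± 0.08, and dre-miR-19c-3p, −0.72 ± 0.07). Not all called entries went this way, as 12 of the lower entries fell and 6 of the higher entries rose. Among the lower entries that fell was dre-miR-10b-5p (−0.36 ± 0.07). ssa-miR-429-3p hardly moved with age (−0.07 ± 0.07, adjusted p = 0.36). All embryos were sampled at the same relative age, and whether the pure crosses differed in developmental pace was not tested.

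**Figure D5:**
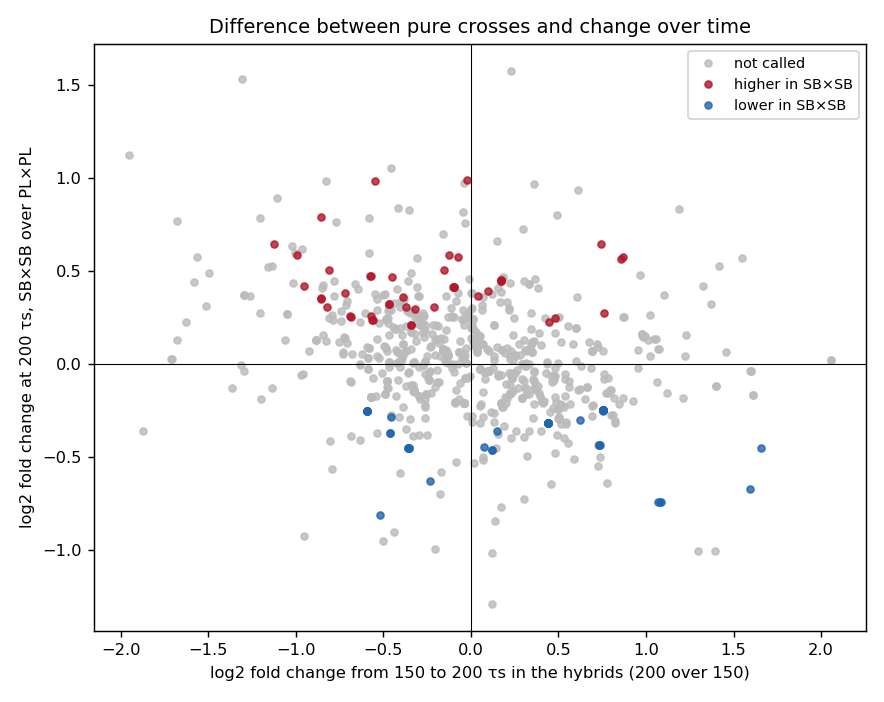
Log2 fold change from 150 to 200 τs in the reciprocal hybrids (x axis, 200 over 150) against that of SB×SB over PL×PL at 200 τs (y axis), with a point for each of the 738 entries. Entries higher in SB×SB (red) lie mostly left of 0 (27 of 45 fell with age) and those lower (blue) mostly right of 0 (27 of 43 rose). Entries that share reads are drawn as separate points.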

How the data were processed

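The authors extracted total RNA from single whole embryos, made small RNA libraries, trimmed adapters (cutadapt) and used miRDeep2 with its Quantifier module to count reads on every species' entries in miRBase. They deposited raw read counts, 1 column per library. Another 72 columns of normalised values in the table, and the mRNA counts of the series, were not used. The redundancy step of the study (Cd-hit) is not in these counts and was not applied.

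Library labels were matched to cross-type, family, time point and letter. The letter is the sequencing batch. Of the 1400 dre- or ssa- rows, 1249 had a read and 845 distinct counts, and the 738 with at least 10 reads over the 18 libraries were tested in edgeR 4.0.16 (R 4.3.3) by quasi-likelihood F-test with TMM factors and batch as a term, and adjusted p under 0.1 was called. Errors of log2 fold changes are the size of the change divided by the square root of F. The values at 150 τs, of the hybrids, and the differences between ages came from 1 fit of 71 libraries in 8 groups with batch, leaving out a PL×SB library with a total of 127822. Family sums treated families as units, whereas limma-voom (limma 3.58.1, duplicateCorrelation) kept embryos as samples, with the family as a random block. DESeq2 1.42.0 and the settings in the closing section were alternatives. Figures were drawn with matplotlib 3.10.9.

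Batch was a block in the model because embryos with the same letter, from different families, were sequenced together. Between libraries of different cross-types, deviations from cross-type means correlated on average at 0.30 within and −0.15 between batches. No library column duplicated another among the 72 pairs within a cross-type. Siblings are separate embryos but share parents, so p-values over embryos measure the spread between siblings as well as between families.

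Entries named with full values were the 8 largest increases and the 8 largest decreases among called entries that averaged 10 CPM or more and whose families did not overlap (1 entry per family and arm), the most abundant entry of each family in the tissue lists, and the 10 most abundant entries. Other entries named were chosen after their values were seen. The members, lists and tests were chosen with earlier results of these data known. Tissue lists follow family names and general knowledge of vertebrate miRNAs, and paralogues share reads. On counts simulated for this comparison (738 entries, 200 changed), edgeR called 56% of the changes of 1.3-fold and 79% of those of 2-fold, and 2.86% of its calls were false. The counts were drawn independently for each entry and embryo, without families or shared reads. The share of false calls in the real data can therefore differ.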

Additional observations from a re-analysis of the deposited data

Results flagged for a closer look

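Among 48 checks of single libraries within groups of 9, where chance marks about 1 in 20 groups, 1 value stood far from the rest. The PL×PL replicate 7 library had 167522 CPM of dre-miR-10b-5p, the highest of its group, with the next, replicate 2, at 107558 CPM. These levels include the TMM scaling, with factors of 0.566 in replicate 7 and 0.836 in replicate 2. As a share of the tested counts, with no TMM scaling, the entry took 9.477% in replicate 7 and 8.997% in replicate 2. The flag therefore marks the scaled level, and the unscaled shares of these libraries lay close together.

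The log2 fold change of SB×SB over PL×PL differed between 200 and 150 τs in the test of the difference for 6 named entries. The change at 200 τs minus that at 150 τs was −0.73 for dre-miR-1 and −0.74 for ssa-miR-1-3p, and it was 0.43 for ssa-miR-429-3p, 0.41 for dre-miR-429a, 0.55 for dre-miR-222a-3p and 0.48 for dre-miR-92a-3p (each with an adjusted p of 0.082 in edgeR). For dre-miR-92a-3p the log2 fold change at 150 τs was −0.20, opposite in sign to that at 200 τs. All of these entries were also called at 200 τs, from libraries that enter the difference between ages.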

How the results depend on the processing

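Against 88 calls (45 higher and 43 lower in SB×SB), scaling by DESeq2 size factors, filterByExpr, a minimum of 1 read and a minimum over all 72 libraries gave 85 to 95 calls. Upper-quartile scaling gave 46 (30 and 16), DESeq2's Wald test 125 (47 and 78), an adjusted p under 0.05 gave 30 (16 and 14) and a fit of all 8 groups 60 (34 and 26). Library totals alone, chosen after seeing the data, gave 241 (230 and 11) and moved the median of all entries from a log2 fold change of 0.03 to 0.26. Of the 88, 10 then changed sign, all let-7a (dre-let-7a, 0.011, adjusted p = 0.95). Among the named entries, miR-181a-5p, ssa-miR-20a-5p, dre-miR-93, ssa-miR-725-3p and dre-let-7a lost their calls under both upper-quartile scaling and library totals alone. Without the replicate block, that is the batch term, 4 entries were called (1 and 3). Sums per family gave 28 (7 and 21) and limma-voom with the family block 69 (42 and 27). By the entries kept, 1 entry per mature name gave 17 (7 and 10), 1 per family and arm 15 (7 and 8, chosen after seeing the data), identical rows kept 83 (24 and 59), salmon entries 44 (22 and 22), zebrafish entries 35 (20 and 15) and entries of all species 256 (134 and 122), with fewer or more entries to adjust over.

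Batch 1 alone gave 17 calls (7 and 10), batch 2 alone 0 (0 and 0, with 30 at an unadjusted p under 0.05 in edgeR) and batch 3 alone 3 (0 and 3), from 3 embryos against 3. In batch 2 alone, dre-miR-138-5p was at −0.11 (adjusted p = 0.95), 1 of 4 called entries that changed sign there. Batches 2 and 3 together, chosen after seeing the data, gave 4 (1 and 3). Leaving out a single embryo gave 28 to 110 calls (13 to 56 higher and 14 to 54 lower), with the fewest without SB×SB replicates 1 (34), 3 (45), 4 (46), 7 (29) and 9 (28) and PL×PL replicates 3 (51) and 7 (53). Leaving out a family gave 18 to 90 (10 to 44 higher and 6 to 46 lower), with 22, 43 and 19 without SB×SB families 1, 2 and 3, and 18 and 51 without PL×PL families 1 and 2. None of the 88 changed sign in these 24 fits. The named entries of miR-1, miR-429 and miR-222a-3p, and ssa-miR-221-3p, were called in all 24. The cause of the other losses was not tested. Depth limits entries of a few CPM, which hold a few reads per library, and 3 families per cross-type limit what holds beyond these parents.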
